A study of Arabidopsis thaliana with 24 samples.

Results

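The Casparian strip genes described here are 7 genes of the root endodermis that were chosen by locus: CASP1 (AT2G36100), CASP2 (AT3G11550), CASP4 (AT5G06200), CASP5 (AT5G15290), MYB36 (AT5G57620), ESB1 (AT2G28670) and SGN3 (AT4G20140, named GSO1 in the annotation). All 7 of 7 were present among the 20450 genes of the deposited table. Their transcript levels were followed in roots of Arabidopsis thaliana seedlings of the stop1 mutant, a line with a T-DNA insertion in STOP1, and of its wild type (wt, Col-0), in 6 liquid media with 2 biological replicates for each of the 12 conditions. STOP1 is a zinc finger transcription factor that is known for its role in tolerance to acidity and aluminum.

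Seedlings of both genotypes were 5 days old when they were moved to the media, and roots were collected after 16 h. Per the methods of the study, RNA came from sections of the root tip of set length, not from whole roots. The ++Fe medium held 0.1 mM FeSO4 and 0.1 mM Pi at pH 5. AlCl3 was added in +Al, with 0 mM Pi at pH 5, at 100 µM in the labels and at a higher concentration in the methods of the study. The remaining media were -Pi_pH5 (0 mM Pi, pH 5), +Pi_pH5 (1 mM Pi, pH 5), -Pi_pH6 (0 mM Pi, pH 6) and +Pi_pH6 (1 mM Pi, pH 6). The +Al medium thus differed from -Pi_pH5 in AlCl3 alone, whereas ++Fe differed from it in both FeSO4 and Pi. The mutant is a single insertion line, and seedlings were pooled within each library.

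The Casparian strip is a belt of lignin in the walls between neighbouring endodermal cells that seals the apoplast between soil and vasculature. CASP proteins are membrane proteins that gather in a belt in the plasma membrane and mark where the strip is laid down. MYB36 is the transcription factor that activates CASP genes and other genes of strip formation, and ESB1 is a dirigent-domain protein that takes part in lignin deposition there. SGN3 is a receptor kinase that perceives the CIF peptides and so surveys whether the strip is closed.

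Values are CPM, the reads of a gene relative to all reads on genes of its library, scaled by the authors for library composition. Libraries held 17027929 to 30516150 reads on genes, so that 1 read corresponded to 0.0326 to 0.0572 CPM. STOP1 transcripts had 28.8 to 57.8 CPM in the 12 stop1 libraries and 108 to 177 CPM in the 12 wt libraries, and ALMT1, the malate transporter gene that depends on STOP1, had 0 to 0.275 CPM in stop1 and 3.36 to 243 CPM in wt. Both ranges fit the genotype labels of every library. For the stop1 mutant, the +Pi_pH6 list of the supplement to the study matches the deposited +Pi_pH5 libraries and the other way round. The deposited labels were kept, and comparisons with -Pi_pH5, which use neither, are given first.

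The members are spread over chromosomes 2 to 5. Coordinates are from TAIR10.1. CASP1 lies on chromosome 2 from 15159591 to 15160799 and ESB1 on chromosome 2 from 12300265 to 12302358, both on the reverse strand. CASP2 lies on chromosome 3 from 3638178 to 3639348, SGN3 on chromosome 4 from 10883921 to 10888270, CASP4 on chromosome 5 from 1877134 to 1878324, CASP5 on chromosome 5 from 4967011 to 4968092 and MYB36 on chromosome 5 from 23334767 to 23336632, all on the forward strand. CASP1, CASP2, CASP4 and CASP5 each have 3 coding exons and a coding sequence of 564 to 621 bases. Their coding sequences were 61.7% to 67.0% identical in pairs, except that CASP2 and CASP4 were 80.6% identical. Stretches of 50 transcript bases that occur elsewhere in the genome numbered 0 in 6 members and 2 of 1631 in ESB1.

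Bases directly upstream of the annotated start are shown for 4 members whose values the results turn on: CASP1 and ESB1, which were lower in stop1 roots in +Al, SGN3, which ran the other way there, and CASP5, which was highest in ++Fe. Each run holds 200 bases of TAIR10.1 in the direction of the gene and ends next to its start. They are chr2:15160800-15160999 for CASP1, chr2:12302359-12302558 for ESB1, chr4:10883721-10883920 for SGN3 and chr5:4966811-4967010 for CASP5. Capitals mark the motifs searched on both strands, the MYB core CNGTTA or CNGTTG and the AC-rich element ACCNAAC.
CASP1: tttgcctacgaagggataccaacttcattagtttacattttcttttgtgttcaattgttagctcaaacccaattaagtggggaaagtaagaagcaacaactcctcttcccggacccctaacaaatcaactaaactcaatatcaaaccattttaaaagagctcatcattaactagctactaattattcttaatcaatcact
ESB1: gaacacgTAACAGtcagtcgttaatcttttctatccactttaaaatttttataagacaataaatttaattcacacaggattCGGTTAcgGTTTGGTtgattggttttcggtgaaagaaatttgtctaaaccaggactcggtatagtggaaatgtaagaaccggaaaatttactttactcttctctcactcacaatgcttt
SGN3: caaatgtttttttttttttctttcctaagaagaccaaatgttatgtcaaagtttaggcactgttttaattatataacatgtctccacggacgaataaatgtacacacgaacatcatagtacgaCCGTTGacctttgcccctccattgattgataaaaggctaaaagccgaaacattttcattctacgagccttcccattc
CASP5: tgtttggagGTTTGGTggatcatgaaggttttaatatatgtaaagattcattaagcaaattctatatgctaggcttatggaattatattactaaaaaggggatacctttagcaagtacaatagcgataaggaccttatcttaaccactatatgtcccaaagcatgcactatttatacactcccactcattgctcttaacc
An MYB core was found in 4 of the 7 members (CASP4, MYB36, ESB1 and SGN3), against 35.5% of 20414 upstream regions of the same length. The element ACCNAAC was found in 2 of the 7 (CASP5 and ESB1), against 12.9% of these regions. Neither motif was in the 200 bases of CASP1 or CASP2, and no matches shared bases in the runs shown.

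Scaled by exon length, CASP1 was the most abundant member, with a mean over the 24 libraries of 88.7 CPM per kb. ESB1 followed with 50.8, CASP2 with 25.5, MYB36 with 11.3, SGN3 with 8.96 and CASP4 with 8.19 CPM per kb. ESB1 shares 1459 of its 1731 exon bases with another gene. Whether reads there were counted is not given, so that its place in this order is not secure. CASP5 had 0.914 CPM per kb and rested on 0 to 109 reads per library, whereas CASP1 had 876 to 2632 reads. The lowest libraries of CASP1, CASP2 and ESB1 were of the same condition, stop1 +Al, and the highest libraries of CASP1, CASP2, CASP4 and ESB1 were of stop1 ++Fe. MYB36 varied least, with its highest library at 1.70 times its lowest (11.5 to 19.7 CPM). SGN3 was the member whose highest library (63.5 CPM) was one of stop1 +Al.

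**Figure D1:**
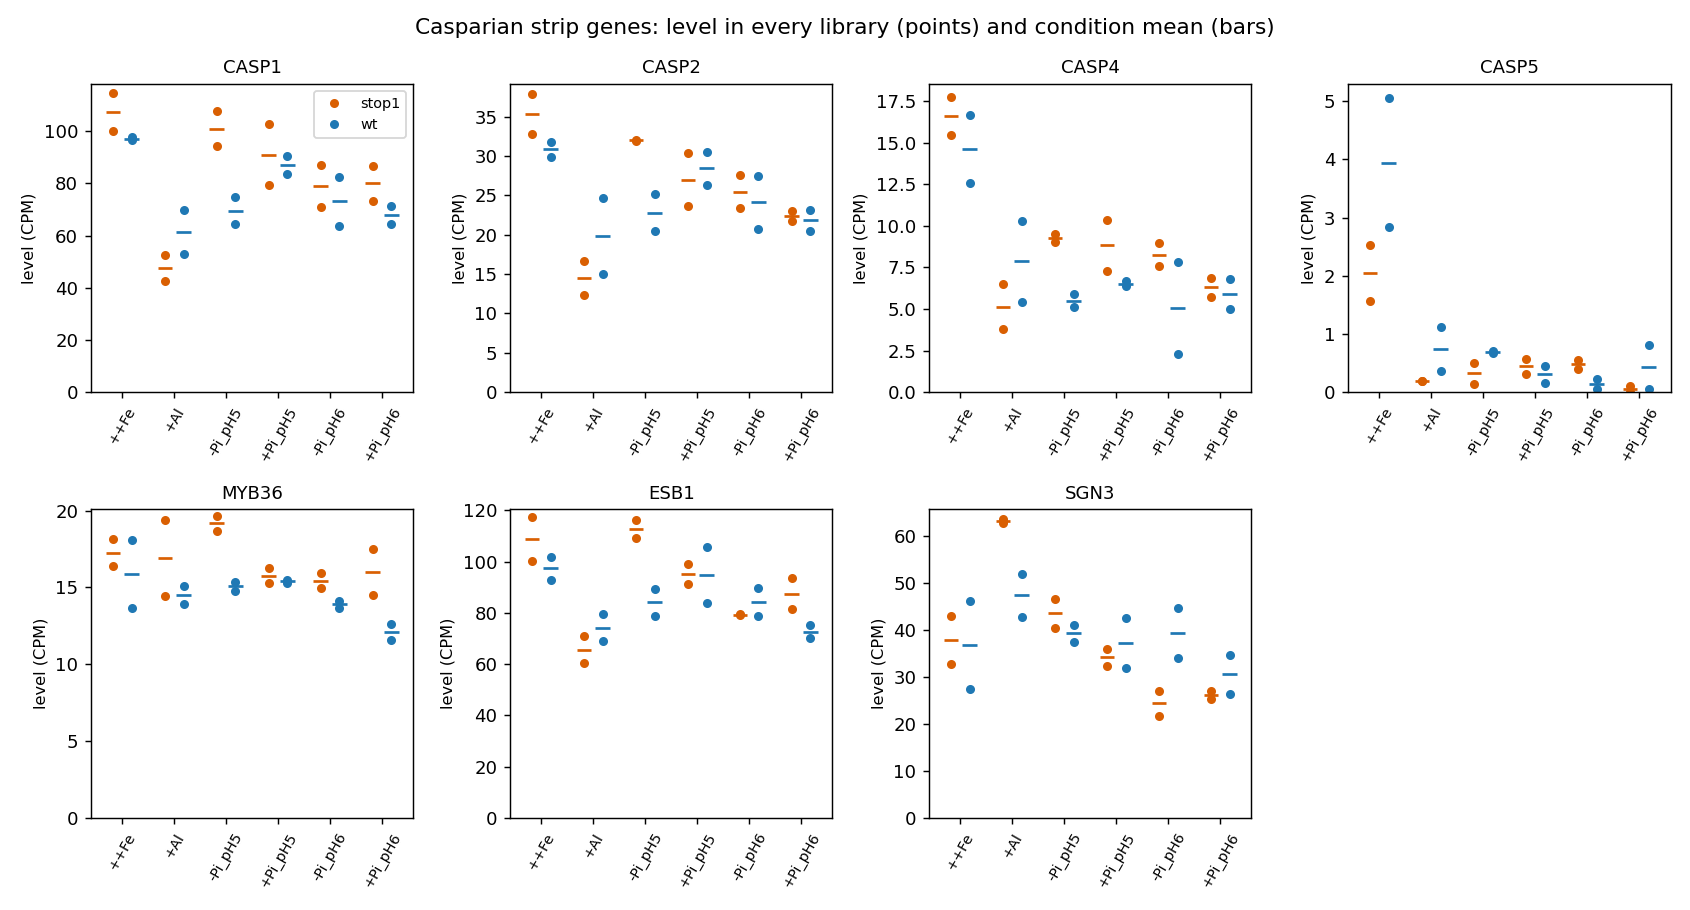
Level of each Casparian strip gene (vertical axis, CPM, starting at 0) in the 6 media (horizontal axis), with stop1 in orange and wt in blue. Points are libraries and bars are means of 2 libraries. CASP1 lies at 42.5 to 52.4 CPM in stop1 +Al, below every other library, and the 4 ++Fe libraries of CASP5 lie above the other 20.

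The first question was how the members responded to aluminum when Pi and pH were held the same. In stop1 roots CASP1, CASP2 and ESB1 were lower in +Al than in -Pi_pH5, at 0.47 to 0.58 times the level on the scale of log2(CPM + 1), which is used for every fold change here. Thus 3 of 7 members were called lower and 0 were called higher by limma with an adjusted p under 0.05, where 15.6% of all 20450 genes were called lower. The median log2 fold change of the 7 members was -0.78, against -0.0036 over all genes tested. In wt roots 0 of 7 members were called, where 4.0% of all genes were called in either direction.

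CASP1 had 52.4 and 42.5 CPM in stop1 +Al, against 94.4 and 108 CPM in stop1 -Pi_pH5. CASP2 had 16.7 and 12.3 CPM in stop1 +Al, against 31.9 and 32.0 CPM in stop1 -Pi_pH5. For both genes each +Al library lay well below each -Pi_pH5 library. The log2 fold change was -1.08 ± 0.17 (SE, adjusted p = 0.00011, limma) for CASP1 and -1.10 ± 0.20 (adjusted p = 0.00043) for CASP2.

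ESB1, the dirigent-domain gene, had 70.9 and 60.2 CPM in stop1 +Al, against 109 and 116 CPM in stop1 -Pi_pH5, a log2 fold change of -0.78 ± 0.13 (SE, adjusted p = 0.00023, limma). The libraries of each ESB1 group lay close together and the groups did not overlap.

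The remaining members did not pass the test in stop1 roots. CASP4 had 6.47 and 3.79 CPM in stop1 +Al, against 9.53 and 9.0 CPM in stop1 -Pi_pH5, with a log2 fold change of -0.78 ± 0.35 (SE, adjusted p = 0.10, limma). CASP5 stood at 4 reads in each stop1 +Al library and at 3 and 11 reads in stop1 -Pi_pH5, so that a difference was not detectable at this depth. MYB36, the activator of the CASP genes, had 19.4 and 14.4 CPM in stop1 +Al, against 18.7 and 19.7 CPM in stop1 -Pi_pH5. Its groups overlapped, and the 95% interval of its log2 fold change ran from -0.49 to 0.12, which does not reach the values of the 3 members that fell.

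SGN3 ran in the opposite direction. It had 62.7 and 63.5 CPM in stop1 +Al, against 40.5 and 46.5 CPM in stop1 -Pi_pH5, with a log2 fold change of 0.53 ± 0.22 (SE, adjusted p = 0.074, limma). The 2 stop1 +Al libraries were the highest of all 24 for this gene, yet the difference did not pass the threshold. In a fit with only the conditions compared the adjusted p was 0.0099.

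In wt roots the same comparison gave smaller values. CASP1 had 69.9 and 52.8 CPM in wt +Al, against 74.6 and 64.3 CPM in wt -Pi_pH5, and these groups overlapped. Over the 7 members the log2 fold changes in wt ran from -0.22 (CASP2) to 0.39 (CASP4), and 0 passed an unadjusted p of 0.05. The 95% interval for CASP1 in wt ran from -0.55 to 0.18, and that for ESB1 from -0.46 to 0.10.

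**Figure D2:**
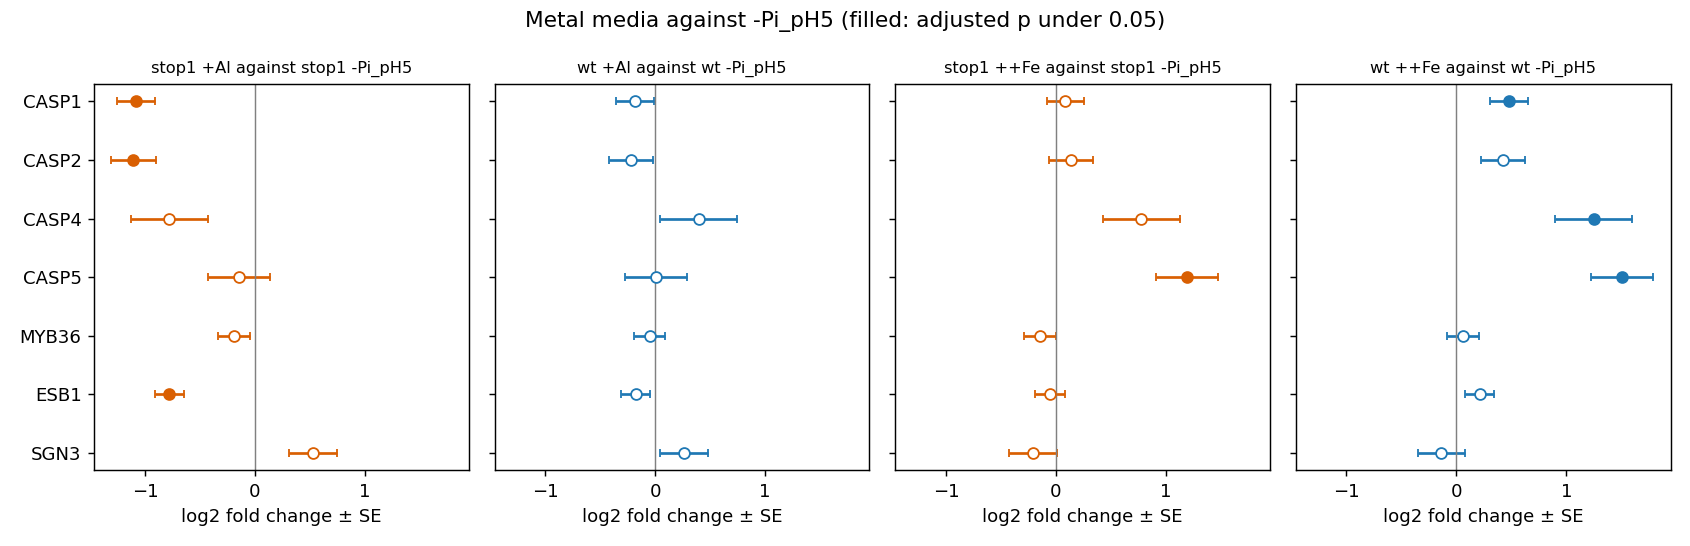
Log2 fold change ± SE (horizontal axis, on log2(CPM + 1)) of each member against -Pi_pH5 of the same genotype, in panels for stop1 +Al, wt +Al, stop1 ++Fe and wt ++Fe. Filled points have an adjusted p under 0.05. In stop1 +Al the 3 filled members lie to the left of 0, and in both ++Fe panels CASP5 lies farthest to the right, at 1.20 in stop1 and 1.51 in wt.

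Whether the response to aluminum differed between the genotypes was tested as the interaction of genotype and medium. CASP1 was the 1 of 7 members that passed, where 3.77% of all genes were called in that direction, with an interaction of -0.89 ± 0.24 on the log2 scale (SE, adjusted p = 0.034, limma). CASP2 had an interaction of -0.88 ± 0.29 (adjusted p = 0.077) and ESB1 of -0.60 ± 0.19 (adjusted p = 0.066). Leaving out 1 library at a time moved the number of members called between 0 and 3. The call of CASP1 was lost without wt +Al replicate 1, stop1 +Al replicate 2 or any 1 of the 4 -Pi_pH5 libraries, and the adjusted p then ran from 0.0501 to 0.18.

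Both ends of the interaction contributed to its value. In +Al, CASP1 differed between stop1 and wt by a log2 fold change of -0.36 ± 0.17 (SE, adjusted p = 0.17, limma), and 0 of 7 members were called, where 20.1% of all genes were called between the genotypes. Without wt +Al replicate 2, CASP2 was called lower in stop1 there (adjusted p = 0.016). In -Pi_pH5, CASP1 had 94.4 and 108 CPM in stop1, against 74.6 and 64.3 CPM in wt, a log2 fold change of 0.53 ± 0.17 (adjusted p = 0.25). In that medium 0 of 7 members were called, where 0.587% of all genes were, although 4 members (CASP1, CASP2, MYB36 and ESB1) had an unadjusted p under 0.05, all of them higher in stop1. In value both stop1 -Pi_pH5 libraries of CASP1 lay above both wt libraries, a difference that was not called. The fall of CASP1 against stop1 +Pi_pH6, given next, was smaller in value. CASP1 had 86.8 and 73.2 CPM in the libraries labelled stop1 +Pi_pH6, and 103 and 79.3 CPM in those labelled stop1 +Pi_pH5.

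Against stop1 +Pi_pH6, CASP1, CASP2 and ESB1 were lower and SGN3 was higher in stop1 +Al. The log2 fold changes were -0.74 ± 0.17 for CASP1 (SE, adjusted p = 0.0024, limma), -0.61 ± 0.20 for CASP2 (adjusted p = 0.025) and -0.41 ± 0.13 for ESB1 (adjusted p = 0.021). SGN3 had 62.7 and 63.5 CPM in stop1 +Al, against 25.2 and 27.0 CPM in stop1 +Pi_pH6, a log2 fold change of 1.24 ± 0.22 (adjusted p = 0.00023). These were 3 of 7 members called lower, where 19.4% of all genes were called lower, and 1 of 7 called higher, where 18.0% of all genes were called higher. In wt +Al against wt +Pi_pH6, 0 of 7 members were called, where 8.46% of all genes were, and SGN3 had the largest value with 0.62 ± 0.22 (adjusted p = 0.092). In stop1 the call of CASP2 was lost without either +Pi_pH6 library or without +Al replicate 2, and that of ESB1 without +Pi_pH6 replicate 1 or +Al replicate 2, which left 2 of 7 members in the last 2 cases.

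The ratio of CASP1 to SGN3 within a library does not depend on library scaling, but it moves with either gene and does not show which of them changed. It was 0.835 and 0.669 in stop1 +Al, against 2.33 and 2.31 in stop1 -Pi_pH5. It was 1.34 and 1.24 in wt +Al, against 1.81 and 1.72 in wt -Pi_pH5. The stop1 +Al libraries were the only 2 of 24 with less CASP1 than SGN3. The ratio of CASP1 to ESB1, a pair that fell together, varied less, between 0.706 and 1.1 over all 24 libraries. Its lowest values were again those of stop1 +Al, 0.739 and 0.706, against 0.865 and 0.926 in stop1 -Pi_pH5.

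**Figure D3:**
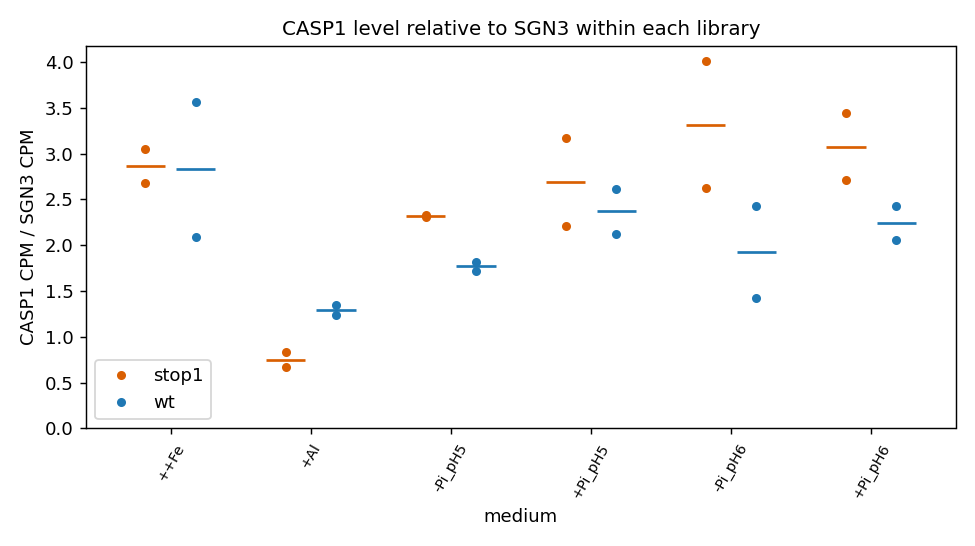
Ratio of CASP1 CPM to SGN3 CPM (vertical axis, no unit, starting at 0) in each library by medium (horizontal axis), with stop1 in orange and wt in blue. Points are libraries and bars are means. The 2 stop1 +Al libraries lie at 0.835 and 0.669, and the other 22 between 1.24 and 4.01.

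Iron excess was the second metal medium, and there CASP4 and CASP5 were higher. In wt ++Fe against wt -Pi_pH5, CASP1, CASP4 and CASP5 were called higher, 3 of 7 members where 12.1% of all genes were called higher. In stop1 ++Fe against stop1 -Pi_pH5, CASP5 was the 1 of 7 members called, where 6.76% of all genes were called higher. The median log2 fold change of the members was 0.43 in wt and 0.09 in stop1, against 0.0072 and -0.0040 over all genes tested.

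CASP5 had 5.05 and 2.84 CPM in wt ++Fe (109 and 60 reads), against 0.705 and 0.679 CPM in wt -Pi_pH5 (15 and 14 reads). In stop1 ++Fe it had 2.53 and 1.57 CPM (58 and 28 reads), against 0.144 and 0.508 CPM in stop1 -Pi_pH5 (3 and 11 reads). The 4 ++Fe libraries were the highest of all 24, and the other 20 held at most 1.11 CPM. On log2(CPM + 1), which understates changes at such low levels, the fold change was 1.51 ± 0.28 in wt (SE, adjusted p = 0.0014, limma) and 1.20 ± 0.28 in stop1 (adjusted p = 0.011). The stop1 call was lost without stop1 ++Fe replicate 1 (adjusted p = 0.13) or stop1 -Pi_pH5 replicate 1 (adjusted p = 0.12).

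CASP4 had 16.6 and 12.6 CPM in wt ++Fe, against 5.92 and 5.09 CPM in wt -Pi_pH5, a log2 fold change of 1.25 ± 0.35 (SE, adjusted p = 0.016, limma). In stop1 ++Fe it had 17.8 and 15.5 CPM, against 9.53 and 9.0 CPM in stop1 -Pi_pH5, a log2 fold change of 0.78 ± 0.35 (adjusted p = 0.18). In both genotypes each ++Fe library lay above each -Pi_pH5 library, and only the wt difference passed the test. CASP1 had 96.5 and 97.7 CPM in wt ++Fe, against 74.6 and 64.3 CPM in wt -Pi_pH5, and its log2 fold change of 0.48 ± 0.17 sat at the threshold (adjusted p = 0.04997). Its adjusted p lay above the threshold in several other settings, among them edgeR's quasi-likelihood test (0.055). CASP1 was also lost without any 1 of the 4 libraries compared, and CASP4 without either wt -Pi_pH5 library or wt ++Fe replicate 1.

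The interaction of genotype and ++Fe was called for 0 of 7 members, where 0.0244% of all genes were called. Between stop1 and wt in ++Fe, 0 of 7 members were called, where 1.21% of all genes were. CASP5 was lower in value in stop1 ++Fe, with 2.53 and 1.57 CPM against 5.05 and 2.84 CPM in wt ++Fe, and a log2 fold change of -0.68 ± 0.28 (SE, adjusted p = 0.41, limma).

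Against +Pi_pH6 the increases in ++Fe covered more members. In wt, 4 of 7 members were called higher, where 12.3% of all genes were called higher: CASP1 with a log2 fold change of 0.51 (adjusted p = 0.042, limma), CASP4 with 1.18 (adjusted p = 0.023), CASP5 with 1.80 (adjusted p = 0.00021) and ESB1 with 0.42 (adjusted p = 0.034). In stop1, 3 of 7 were called higher, where 9.16% of all genes were: CASP2 with 0.63 (adjusted p = 0.043), CASP4 with 1.27 (adjusted p = 0.019) and CASP5 (adjusted p = 0.0011). CASP5 had 58 and 28 reads in stop1 ++Fe, against 0 and 2 reads in stop1 +Pi_pH6, and no fold is given against so few reads. Without any 1 of the stop1 libraries compared, CASP5 alone passed in stop1, as it did with the stop1 +Pi_pH5 libraries in place of those labelled +Pi_pH6. In wt leaving out 1 library left 1 to 3 members. With wt +Pi_pH6 replicate 2 left out, that 1 was CASP5.

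Low Pi and low pH without AlCl3 or excess iron gave no called member. In wt, 0 of 7 members were called in -Pi_pH5 (1.44% of all genes called), in +Pi_pH5 (0.0293%) and in -Pi_pH6 (0.166%), each against +Pi_pH6. In stop1 the count was likewise 0 of 7 in -Pi_pH5 (1.60% of all genes), in +Pi_pH5 (0.0782%) and in -Pi_pH6 (0.998%). The largest values were those of stop1 -Pi_pH5 against stop1 +Pi_pH6, where all 7 members had a positive log2 fold change and 3 had an unadjusted p under 0.05. Among these SGN3 had 40.5 and 46.5 CPM in stop1 -Pi_pH5, against 25.2 and 27.0 CPM in stop1 +Pi_pH6, with a log2 fold change of 0.71 ± 0.22 (SE, adjusted p = 0.13, limma). These values depend on the stop1 +Pi_pH6 label, which the supplement gives to the other libraries. The libraries labelled stop1 +Pi_pH5 had 32.4 and 35.9 CPM of SGN3, nearer to stop1 -Pi_pH5. For CASP5 their mean was 0.444 CPM, above the 0.326 CPM of stop1 -Pi_pH5, so that not all 7 members would be positive against them.

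Between the genotypes, 0 of 7 members were called in +Pi_pH5 (0.406% of all genes called), in -Pi_pH6 (0.533%) or in +Pi_pH6 (0.191%). In -Pi_pH6, SGN3 had 27.1 and 21.7 CPM in stop1, against 34.0 and 44.6 CPM in wt, a log2 fold change of -0.66 ± 0.22 (SE, adjusted p = 0.18, limma). These groups did not overlap, and without wt -Pi_pH6 replicate 1 both SGN3 and CASP4 were called. In all, limma called no member in 15 of 22 comparisons. In these 15 the likelihood ratio and quasi-likelihood tests of edgeR and the Wald test of DESeq2 also called 0, and the number of members with an unadjusted p under 0.05 was 0 to 4.

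Root tip sections are mixed tissue, so that fewer cells of a type and less RNA per cell cannot be told apart. Markers of root cell types were therefore followed beside the members. Early endodermis markers (SCR, SCL3, EN7 and SCL23) summed to 168 and 170 CPM in stop1 +Al, against 123 and 133 CPM in stop1 -Pi_pH5. Of these 4, 1 was called higher and 2 lower, where 15.4% and 15.6% of all genes were. The rise of the sum came from SCL3, the 1 called higher, and the median log2 fold change of the 4 was -0.14. Markers of the suberised endodermis (GPAT5, CYP86A1, CYP86B1, FAR4 and FAR5) summed to 1156 and 1131 CPM in stop1 +Al, against 257 and 281 CPM in stop1 -Pi_pH5. Of them 5 of 5 were called higher, where 15.4% of all genes were. In wt +Al they summed to 485 and 400 CPM, against 222 and 147 CPM in wt -Pi_pH5. There 3 of 5 were called higher, where 538 of all 20450 genes were. The suberin genes thus rose in the same libraries in which CASP1, CASP2 and ESB1 fell.

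In ++Fe the suberised endodermis markers summed to 664 and 448 CPM in stop1 and to 559 and 371 CPM in wt. Against -Pi_pH5, 4 of 5 were called higher in stop1 and 5 of 5 in wt, where 6.76% and 12.1% of all genes were. There none of the CASP genes followed here was called lower. The sum of CASP1, CASP2 and CASP4 was 170.3 and 148 CPM in stop1 ++Fe, 75.5 and 58.6 CPM in stop1 +Al, and 136 and 149 CPM in stop1 -Pi_pH5. Suberin markers and CASP1 and CASP2 thus moved in opposite directions in stop1 +Al. In stop1 ++Fe the suberin markers rose, whereas CASP1 and CASP2 had log2 fold changes of 0.09 and 0.14 against stop1 -Pi_pH5, neither called. The difference between the metal media was not tested.

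**Figure D4:**
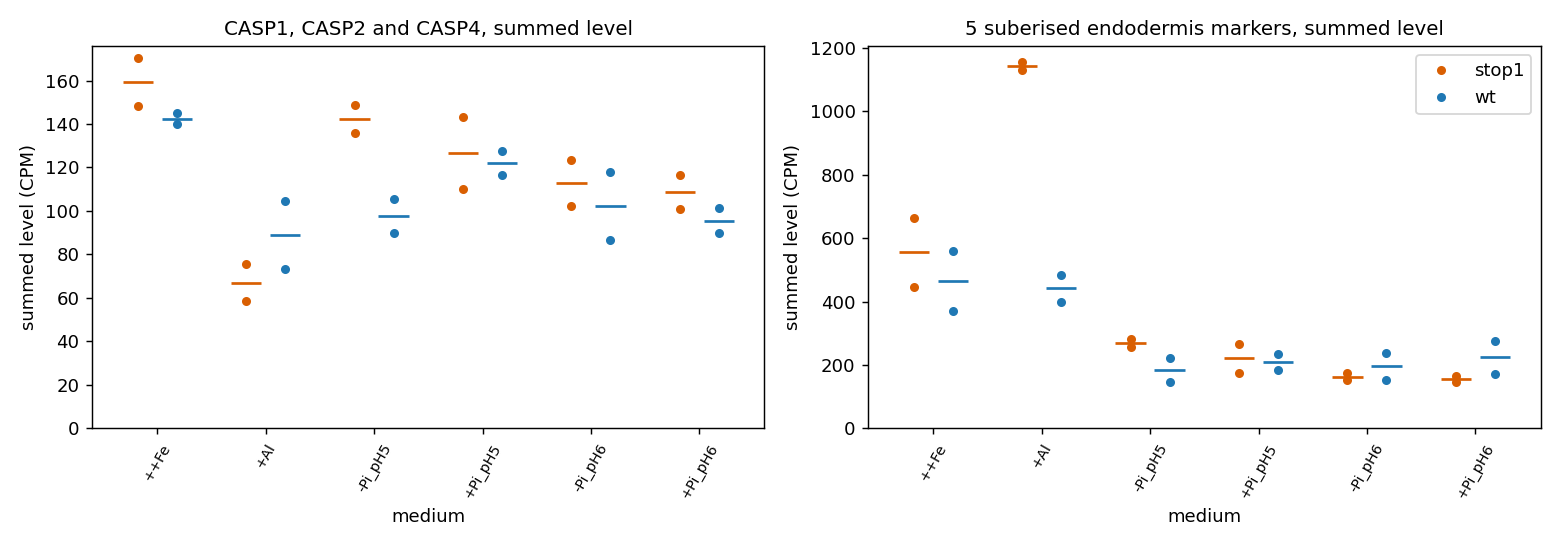
Summed level (vertical axes, CPM, starting at 0) of CASP1, CASP2 and CASP4 at left and of 5 markers of the suberised endodermis at right, by medium (horizontal axes), with stop1 in orange and wt in blue. Points are libraries and bars are means. The stop1 +Al libraries are at 75.5 and 58.6 CPM for the CASP genes and at 1156 and 1131 CPM for the suberin markers.

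Other cell types moved in the comparison of stop1 +Al with stop1 -Pi_pH5, where 15.6% of all genes were called lower and 15.4% higher. In stop1 +Al against stop1 -Pi_pH5, 5 of 5 epidermis and root hair markers were lower (summed CPM 188 and 168 against 628 and 734), as were 2 of 2 cortex markers (5.92 and 6.31 against 24.8 and 35.3) and 3 of 3 root cap markers (13.4 and 14.9 against 33.4 and 38.9). Among inner tissues 1 of 3 phloem markers was higher (summed CPM 111 and 83.9 against 60.03 and 46.9) and 1 of 3 markers of the pericycle and stele was lower (436 and 487 against 618 and 687). None of 6 meristem markers and none of 5 xylem markers was called. No marker of these root cell types was at 0 in any library. The part of these shifts in the values of the members was not tested. Shoot markers stood at 125 to 537 CPM in 4 libraries. These were wt +Pi_pH5 replicate 2, wt +Al replicate 1, stop1 +Pi_pH6 replicate 1 and stop1 +Pi_pH5 replicate 1. The same markers stood at 92.6 CPM in wt +Pi_pH6 replicate 1, a reference library, and at 22.0 CPM or less in the rest.

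Other genes of strip formation were counted from a list of 25. In stop1 +Al against stop1 -Pi_pH5, 10 of 25 were called lower, where 15.6% of all genes were, and 1 higher, where 15.4% were, with a median log2 fold change of -0.05 against -0.0036 over all genes. In wt +Al against wt -Pi_pH5, 0 of 25 were called, where 4.0% of all genes were. The genes that were lower in stop1 include the peroxidase gene PER64, which acts in strip lignification, with 42.4 and 33.9 CPM in stop1 +Al against 64.3 and 71.0 CPM in stop1 -Pi_pH5 (log2 fold change -0.82 ± 0.13, SE, adjusted p = 0.00016, limma). The peroxidase genes PER39 and PER3 had the lowest values, -2.26 and -1.90.

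SGN1, a kinase that acts downstream of SGN3, had 25.8 and 21.0 CPM in stop1 +Al, against 53.1 and 70.4 CPM in stop1 -Pi_pH5, a log2 fold change of -1.36 ± 0.15 (SE, adjusted p = 3.2e-06, limma). The receptor and its kinase thus ran in opposite directions in value. The dirigent genes DIR18 and DIR9 had log2 fold changes of -1.03 and -0.74, and the copper protein gene UCC1 of -0.49. Among the transcription factors that specify the endodermis, SCL23 had -0.76, JKD -0.54 and SCR -0.39. The 1 gene called higher was SCL3, with 99.1 and 101 CPM in stop1 +Al, against 40.9 and 50.3 CPM in stop1 -Pi_pH5 (1.13 ± 0.20, adjusted p = 0.00028).

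**Figure D5:**
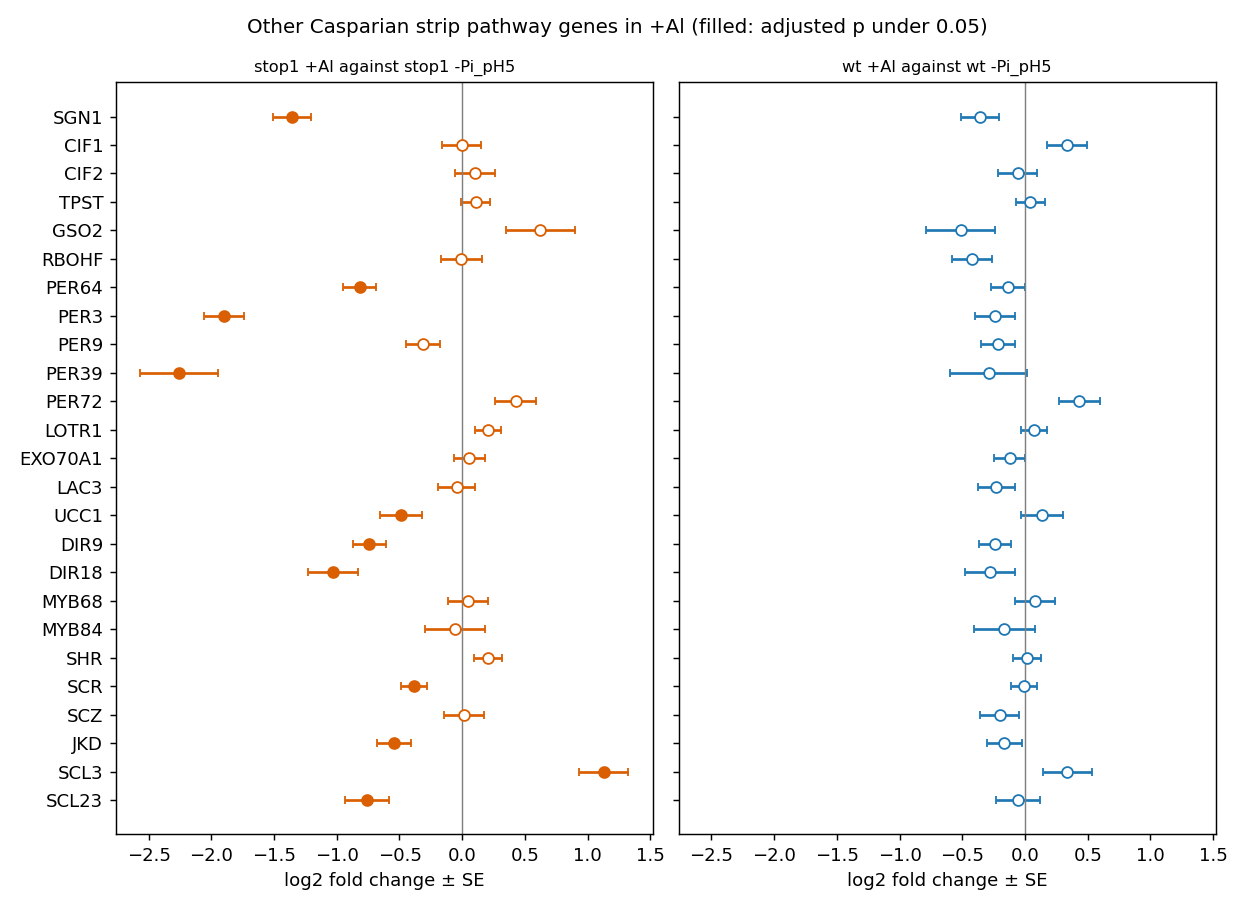
Log2 fold change ± SE (horizontal axis, on log2(CPM + 1)) of 25 other genes of strip formation in +Al against -Pi_pH5, in stop1 at left and wt at right. Filled points have an adjusted p under 0.05. In stop1 10 genes lie filled to the left of 0 and SCL3 to the right, and in wt none is filled.

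The ligand side of the SGN3 pathway did not show such a fall. CIF1 and CIF2, the peptide genes, and TPST, the enzyme that sulfates the peptides, had 95% intervals of -0.34 to 0.33, -0.23 to 0.43 and -0.14 to 0.35 in stop1 +Al against stop1 -Pi_pH5. GSO2, the close relative of SGN3, had 8.44 and 9.37 CPM in stop1 +Al, against 3.34 and 1.98 CPM in wt +Al, and was called higher there (1.46 ± 0.28, SE, adjusted p = 0.00092, limma). In that comparison of genotypes 5 of 25 were called higher, where 11.2% of all genes were, and 3 lower, where 8.92% were. PER72 (0.72), SHR (0.42), PER9 (0.42) and SCL3 (0.93) were the others called higher, and PER39 (-2.04), PER3 (-1.16) and SGN1 (-0.65) were lower. Genotype and +Al interacted for 4 of 25 by the same test, PER39, PER3, SGN1 and PER64. All 4 had a negative value, where 3.77% of all genes were called in that direction.

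In wt ++Fe against wt -Pi_pH5, 4 of 25 were called higher and 6 lower, where 12.1% of all genes were called in each direction. DIR18 (0.68), SGN1 (0.62), PER72 (0.59) and PER9 (0.50) were higher. PER39 (-0.91), RBOHF (-0.73), which encodes the NADPH oxidase of strip formation, JKD (-0.47), EXO70A1 (-0.43), SCR (-0.37) and LOTR1 (-0.32) were lower. In stop1 ++Fe against stop1 -Pi_pH5, CIF1 (-0.62) and SCR (-0.34) were lower, where 4.16% of all genes were. None was higher there, where 6.76% of all genes were. Between the genotypes in ++Fe none of 25 was called, where 1.21% of all genes were. Of 34 genes annotated as CASP-like, 30 were in the table. In ++Fe against -Pi_pH5, 8 of the 30 were called higher and 0 lower in stop1, where 6.76% of all genes were called higher, and 12 were called higher and 0 lower in wt, where 12.1% were. In stop1 +Al against stop1 -Pi_pH5, 10 of the 30 were called higher and 5 lower, where 15.4% and 15.6% of all genes were.

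How far the members moved together was described over the 24 libraries, which share conditions, so that no p is given. CASP1 had a Pearson correlation on log2(CPM + 1) of 0.97 with CASP2, 0.93 with ESB1 and 0.75 with CASP4. CASP4 and CASP5 had 0.76, whereas CASP1 and CASP5 had 0.46. MYB36 had 0.31 and SGN3 -0.37 with CASP1. In the 16 libraries outside +Al and ++Fe these were 0.61 and 0.14, so that the negative value of SGN3 was not seen there.

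A CASP profile, the mean of the standardised values of CASP1, CASP2, CASP4 and CASP5, was then set against 19387 other genes with a mean of at least 1 CPM. ESB1 had a correlation of 0.81 with it and stood at rank 117, MYB36 had 0.33 at rank 4723 and SGN3 had -0.20 at rank 12729. The 10 genes most like the profile were AT2G25150 (0.94), AT3G20370 (0.92), AT3G50300 (0.92), AT1G22550 (0.91), AT4G03610 (0.91), AT5G42250 (0.91), PIP1B, an aquaporin of the plasma membrane (0.91), AT1G80120 (0.90), MEB2 (0.90) and AT1G62660 (0.90). Over the 12 condition means their correlations ran from 0.90 to 0.96. None of these 10 belongs to the list of 25, of which DIR18 and PER64 came nearest, at ranks 15 and 16.

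Overlap with other genes limits some of these values. CASP1, CASP5, ESB1 and SGN3 each overlap 1 gene on the opposite strand, and the strand setting of the counting is not given in the sources used here. SGN3 shares 337 exon bases with AT4G20150, which had 148 to 313 CPM and was lower in stop1 +Al than in stop1 -Pi_pH5 (-0.60 ± 0.18, SE, adjusted p = 0.018, limma), where SGN3 was higher in value. CASP1 shares 49 exon bases with AT2G36090, at 29.8 to 86.2 CPM, which was lower in the same comparison (-1.31 ± 0.18, adjusted p = 2.8e-05). AT2G36090 was also called in the interaction of genotype and +Al, with a value of -1.17 ± 0.26 (adjusted p = 0.0093), and in stop1 +Al against wt +Al (-0.77 ± 0.18, adjusted p = 0.0050). The partner of CASP1 thus shows the interaction too, and its part in the value of CASP1 was not tested. ESB1 shares 1459 exon bases with AT2G28671, which had at most 5.61 CPM, and CASP5 shares 4 with AT5G15300. Within the shared bases, reads of such partners cannot be told apart from those of the members if strand was not used. Whether reads over shared bases were counted or set aside is not given either. Outside the shared bases this limit does not apply. CASP2, CASP4 and MYB36 overlap no other gene.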

How the data were processed

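Transcript levels of root RNA-seq libraries were taken from the table deposited by the authors, whose values are a normalised signal: per the methods, reads were trimmed, aligned with HISAT2 2.1.0 to TAIR10, counted on genes with HTSeq 0.11.2 and scaled to CPM by library size with edgeR 3.28.0. A recomputation found the TMM factors of edgeR in these values. Read numbers could be rebuilt from these values, and 100% of them came out within 0.01 of a whole number. All columns were used, leaving 0 unused. The libraries were poly(A)-selected and strand-specific.

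Differential expression was tested with limma 3.58.1 (R 4.3.3) on log2(CPM + 1) with a mean-variance trend and 1 coefficient for each of 12 conditions, and p was adjusted by Benjamini-Hochberg over 20450 genes. A gene was called at an adjusted p under 0.05. A fold change is on that scale and understates the change of low genes. edgeR 4.0.16 (likelihood ratio, the test of the study, and quasi-likelihood) and DESeq2 1.42.0 on the rebuilt reads served as alternatives. A pseudocount of 0.1, library size only, a mean CPM of at least 1 (19394 genes), only the conditions compared, a replicate block, exchanged labels and leaving out each library were also tried. The tests were first tested on simulated data. A count of 3 reads or fewer in both libraries was treated as the limit of detection.

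Genes named beside the 7 members are those of the list of 25 called in a metal medium against -Pi_pH5 or between genotypes in a metal medium, the 10 most like the CASP profile, and STOP1 and ALMT1 as a check of labels. Overlapping partners were added. The CASP profile uses the 4 CASP genes named, and 1 gene is not reported here. The members and lists were chosen with earlier results of these data known. Positions, sequences and motif matches were read from RefSeq TAIR10.1, a later release than that of the authors, with Python 3.11.15, pandas 2.3.3 and Biopython 1.88, and figures were drawn with matplotlib 3.10.9. P-values rest on 1 spread per gene, estimated over all 12 conditions from 2 biological replicates each and drawn toward the mean-variance trend. They do not measure the spread of the compared libraries alone. The main test carried no replicate block.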

Additional observations from a re-analysis of the deposited data

Results flagged for a closer look

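By limma the response of CASP1 to aluminum differed between the genotypes, with an interaction of -0.89 on the log2 scale (adjusted p = 0.034). The call was lost without any single -Pi_pH5 library and with only the conditions compared. Between stop1 and wt the log2 fold change of CASP1 was 0.53 in -Pi_pH5 and -0.36 in +Al, and neither was called. CASP1 was lower in both stop1 +Al libraries than in both stop1 -Pi_pH5 libraries, while the wt +Al and wt -Pi_pH5 libraries overlapped. The overlapping gene AT2G36090 had an interaction of -1.17 in the same test (adjusted p = 0.0093). With 2 replicates per condition no test for a deviating library was made.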

How the results depend on the processing

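In 15 of 22 comparisons no member was called by limma, by either edgeR test or by DESeq2 with all libraries. Leaving out a library called members in some of these, as given below. Over 19 member values called by limma and 235 alternatives, none turned its direction, 186 kept the call and 49 lost it. For wt ++Fe against wt +Pi_pH6, 2 members were called with only the conditions compared in place of 4, and 1 to 3 when leaving out a library. For stop1 ++Fe against stop1 +Pi_pH6 there were 5 with only the conditions compared, 1 with the stop1 +Pi_pH6 and stop1 +Pi_pH5 labels exchanged, and 1 without any 1 library, in place of 3. For stop1 ++Fe against stop1 -Pi_pH5 there were 2 with only the conditions compared, 0 at a mean CPM of at least 1, since CASP5 is then not tested, and 0 to 1 when leaving out a library, in place of 1. For stop1 +Al against stop1 -Pi_pH5 there were 5 with only the conditions compared and 3 without any 1 library, in place of 3. Leaving out a library gave 2 to 4 for stop1 +Al against stop1 +Pi_pH6, 1 to 2 for wt ++Fe against wt -Pi_pH5, 0 to 2 for stop1 against wt in -Pi_pH6 and 0 to 1 for stop1 against wt in +Al. The interaction of genotype and +Al called 1 member, against 2 with the likelihood ratio test, 3 with DESeq2, 0 with only the conditions compared, 3 with the replicate block and 0 to 3 without 1 library. The cause was not tested. The samples share only a replicate number, and the labels name no batch behind it. Libraries of the same number deviated together with a correlation over 0.1 in 38 of 66 pairs of conditions and under -0.1 in 9. These correlations ran from -0.379 to 0.524, with a median of 0.126. The main test did not pair the samples by number, so that deviations shared by a number were left in its spread. The correlation of SGN3 with the CASP profile was 0.11 without the +Al and ++Fe libraries and that of MYB36 0.54. CASP5 is limited by depth, with a median of 9 reads per library.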
